A study of Mus musculus with 4 samples.

Results

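A set of 10 genes, made up of the transcription factor ATF4 and genes that act with it or are known targets of it, was followed through immune cells of the mouse small intestine: Atf4, Ddit3, Atf5, Trib3, Asns, Psat1, Phgdh, Ddit4, Sesn2 and Eif4ebp1. They were taken by symbol, and all 10 symbols were found among the 32285 genes of the count tables. They stand for 11 gene identifiers, because Ddit3 is listed under ENSMUSG00000025408, which held all of its counts, and under ENSMUSG00000116429, which held none in any sample. The members were set by name, not by their values.

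CD45+ cells from intestinal crypts of mice, given as male under the genotype field, were sorted and sequenced with a droplet kit that reads the 5′ ends of transcripts, and a transcript is counted once by its unique molecular identifier (UMI). The design had 2 samples from mice fed a control diet and 2 labelled cystine, from mice fed a diet the protocol calls high in cysteine (cystine is the oxidised dimer of that amino acid). Group membership was read from the sample titles, since the treatment field gives the control condition for all 4. Strain, age, the length of feeding and whether a sample is 1 mouse or a pool were not given in the sources used here, and the p-values therefore reflect the spread among the 4 libraries alone, which may be technical.

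When a cell runs short of an amino acid, uncharged transfer RNAs activate the kinase GCN2, which phosphorylates the initiation factor eIF2. General translation then falls while ATF4 protein is made more efficiently from mRNA already present, and ATF4 switches on genes for amino acid synthesis, amino acid uptake and tRNA charging. The same arm is used under endoplasmic reticulum stress through the kinase PERK, and in dividing lymphocytes it is tied to the supply of serine and asparagine. Much of the control of ATF4 itself lies in translation, which RNA counts do not measure.

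ATF4 binds, as a dimer with a C/EBP protein, a composite element whose core is written TGATGNAA. Windows of 300 bases around the start sites (250 before, 50 after) were searched on both strands in RefSeq sequence of build GRCm38.p6, which was at hand for 9 members, in 11 windows. The core was found in 2 of the 9 members, Asns and Trib3, and in 3.97% of all 32851 windows. These sites are shown because Asns carries a textbook amino acid response element, with the core in capitals and each run read 5′ to 3′ on the strand of the gene, here the minus strand. The Asns match begins 23 bases before the start site at chr6:7693214-7693243, and the Trib3 match lies in reverse orientation from base 15 after the start site at chr2:152344028-152344057.
Asns: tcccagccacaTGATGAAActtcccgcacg
Trib3: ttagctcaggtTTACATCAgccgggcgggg
A related form, TGNTGCAA, was searched after the first result was seen and was found in 3.22% of all windows and in 3 members. Its matches were at chr19:15925177-15925206 for Psat1, from 136 bases before the start, at chr4:132510656-132510685 for Sesn2, in reverse orientation from 218 bases before the start, and at chr2:152344075-152344104 for Trib3, from 33 bases before the start. All 3 genes lie on the minus strand.
Psat1: acgcgggtggcTGGTGCAAtcccctgctct
Sesn2: catgcaaaagtTTGCAGCAtctgtgcgagg
Trib3: cgggtcacagaTGGTGCAAtcccgggccgc
A match describes letters in the window and no binding was measured here.

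The 4 libraries held 27229695 to 31301936 UMIs over 15391 to 19351 barcodes, of which 13480 to 16310 were kept, with a median of 1294 to 1713 UMIs a cell. Any pair of libraries shared 335 to 454 barcodes, at most 2.69% of the smaller library. Cells were sorted into classes by marker UMIs, and the 7 gated classes that no sample held fewer than 20 cells of were compared: γδ T cells (2081 to 2818 cells), T cells with Cd8a and no Cd8b1 UMI (CD8α-only, 3467 to 4343), CD8αβ T cells with both (446 to 1242), CD4 T cells (41 to 83), B cells (313 to 2457), plasmacytoid dendritic cells (pDC, 127 to 348) and phagocytes (46 to 70). T cells that met no subset gate were the largest group (4725 to 5915 cells, 29.0 to 40.6% of kept cells), and they were left out of the comparison of classes, as were barcodes of no lineage (194 to 473) or of several (230 to 1035). Ptprc, which encodes CD45, was present in all 7 classes at 360 to 1271 CPM (counts per 1000000 UMIs of the class). Markers outside the gates summed to 53531 to 61252 CPM in B cells, against 24815 to 38900 CPM in phagocytes, 22120 to 25965 CPM in pDC, which also present antigen through the Cd74 and H2-Aa of that list, and 330 to 945 CPM in γδ T cells. The pDC markers summed to 13873 to 15420 CPM in pDC (at most 3253 in B cells), and were also highest in their own class for phagocytes, at 12257 to 17164 CPM with 9877 to 11617 CPM in pDC. In contrast, Fcer1g, Cd244a and Cd160 together were as high in CD8α-only cells (4480 to 5055 CPM) as in γδ T cells (3839 to 4716 CPM), so the line between these classes rests on the gate. Paneth cell genes, 9 secretory products of an epithelial cell that CD45 sorting should remove, summed to 23.4 and 11 CPM in the control libraries but 540 and 1299 CPM in the cystine libraries over all kept cells. They were higher in both cystine samples in 6 of the 7 classes, all but phagocytes, and their part in the diet results below was not tested.

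Across classes the members did not move as 1 block. B cells were high in Atf4 and Eif4ebp1, pDC in Sesn2 and Phgdh, and phagocytes in Eif4ebp1 with almost no Phgdh. The γδ, CD8α-only and CD8αβ T cells were high in Ddit3 with little Eif4ebp1. Each class was compared with the mean of the other 6 by edgeR's quasi-likelihood test on summed UMIs, with the sample as a block and an adjusted p under 0.05 as the threshold. Of the 10 members 7 had enough UMIs for this fit, all but Asns, Atf5 and Trib3. Beside the share of all 9637 genes tested, the members called were 5 of 7 in B cells against 46.8%, 5 of 7 in pDC against 44.5%, 4 of 7 in phagocytes against 37.7%, 3 of 7 in γδ T cells against 52.3%, 3 of 7 in CD8αβ T cells against 28.4%, 2 of 7 in CD8α-only cells against 48.9% and 1 of 7 in CD4 T cells against 9.4%. Sesn2 met the filter on low counts through pDC alone, so its call there is part of how it entered the fit and adds no weight to the pDC count.

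Since that contrast averages logarithms, a class in which a gene is almost absent lowers the reference for all others, which touches Phgdh (1 UMI in phagocytes) and Sesn2 (0 UMIs in CD4 T cells). The fit was therefore repeated without CD4 T cells and phagocytes, a choice made after seeing the data, in which 8 members were measured. The members called were then 5 of 8 in B cells, with 55.1% of all genes called, 4 of 8 in pDC with 54.8%, 5 of 8 in γδ T cells with 57.7%, 6 of 8 in CD8α-only cells with 54.2% and 3 of 8 in CD8αβ T cells with 30.2%. Here Atf5 entered mainly through CD8αβ T cells and Sesn2 through pDC, the classes in which each was called higher. Values from this fit are called the 5-class values below.

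**Figure D1:**
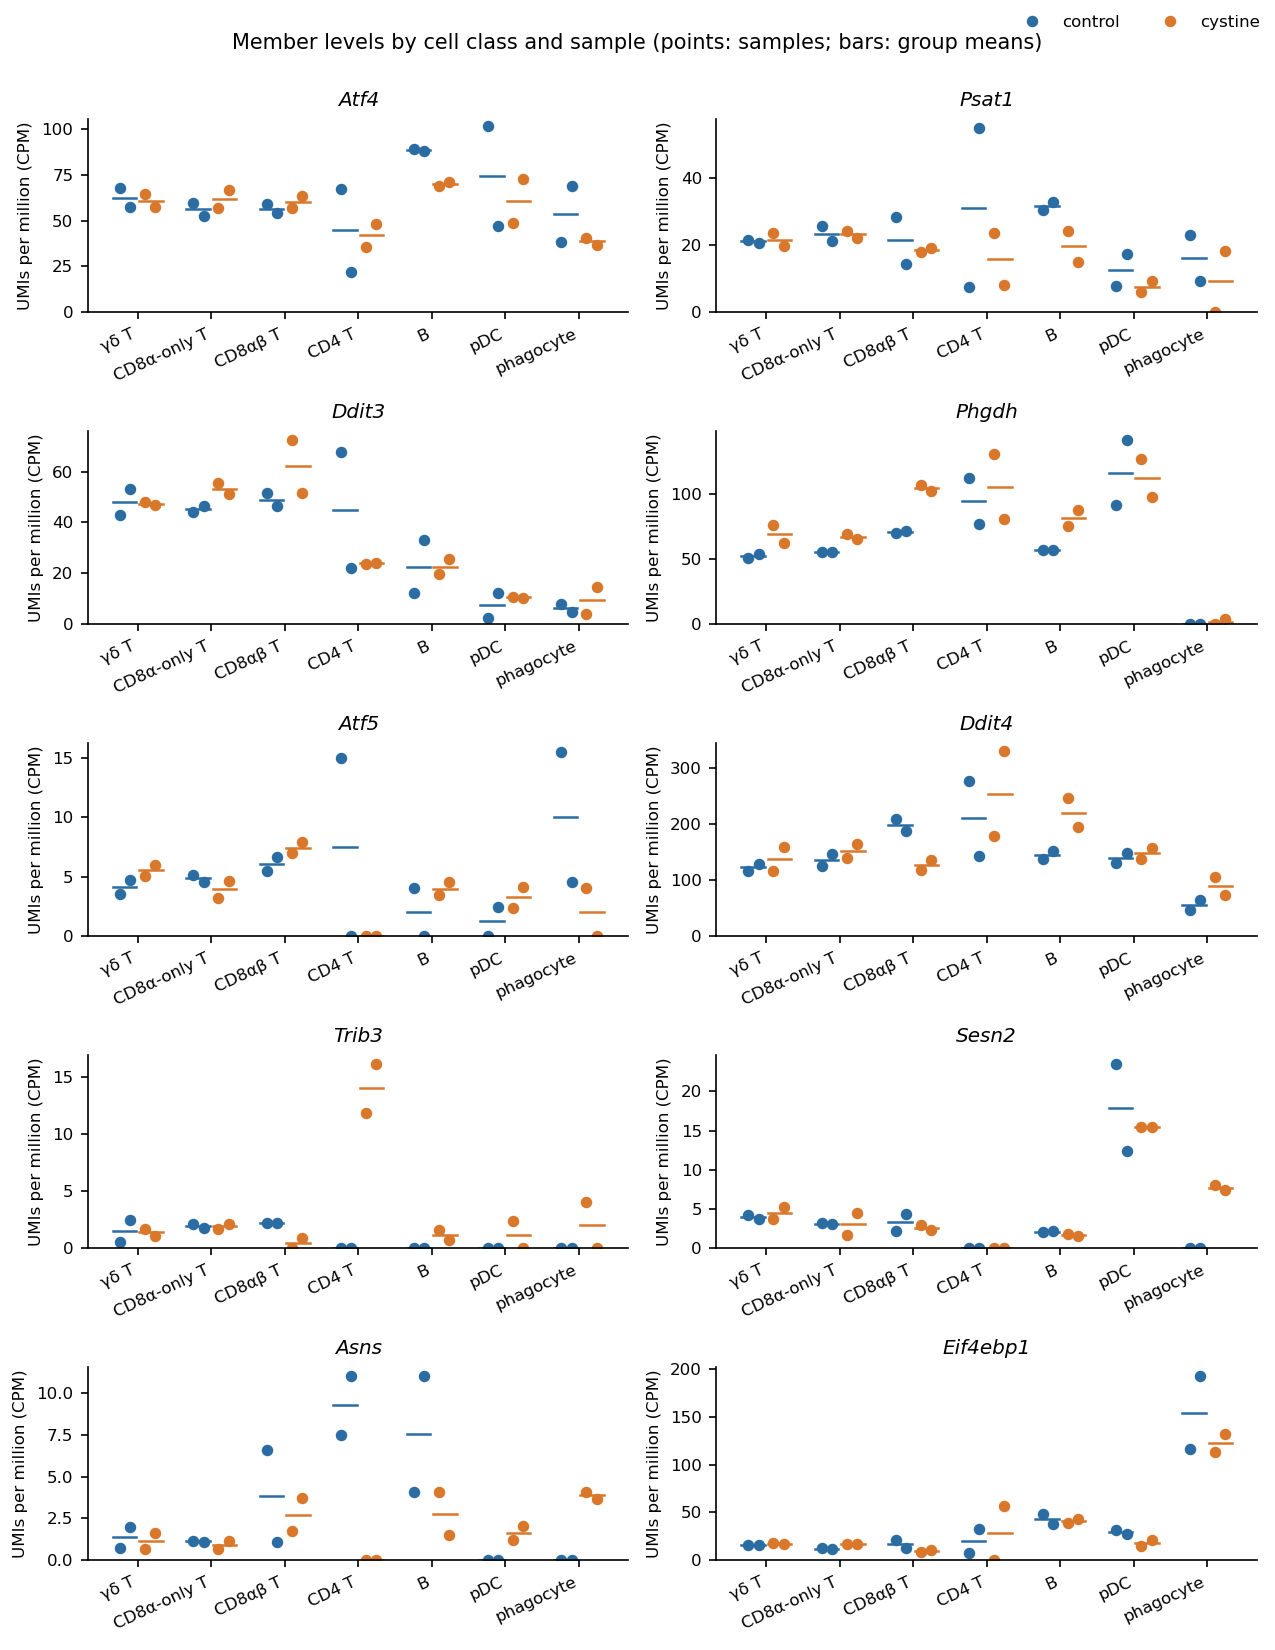
Levels of the 10 members (vertical axis, CPM, linear from 0) in 7 cell classes. Points are samples, blue for control and orange for cystine, and short bars are the means of 2 samples. Eif4ebp1 stands highest in phagocytes (114 to 193 CPM), Sesn2 in pDC (12.4 to 23.5 CPM), and Phgdh is at 0 in 3 of the 4 phagocyte sums.

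Of the transcription factors, Atf4 itself was the most even. It measured 89.4 and 87.9 CPM in B cells of the control samples and 69.1 and 71.5 CPM in those of the cystine samples, and 52.5 to 67.8 CPM over all samples of the γδ, CD8α-only and CD8αβ T cell classes. Every B cell value lay above every value of these T cells. B cells were higher than the other classes by 0.73 on the log2 scale (SE 0.12, adjusted p = 1.26e-05), and the 5-class value was 0.61. In pDC Atf4 ranged from 47.1 to 102 CPM, and its call there (0.37, adjusted p = 0.042) was lost in the 5-class fit (0.22, adjusted p = 0.16).

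Ddit3 encodes CHOP, a transcription factor that ATF4 induces and that is linked to cell death under long stress. It measured 43.1 to 53.2 CPM in γδ T cells, 44.0 to 55.6 CPM in CD8α-only cells and 46.3 to 72.4 CPM in CD8αβ T cells, against 12.2 to 33.0 CPM in B cells, 2.6 to 12.4 CPM in pDC and 4.1 to 14.7 CPM in phagocytes. None of the samples of these T cell classes overlapped with B cells, pDC or phagocytes. It was higher in CD8αβ T cells by 1.23 (SE 0.16, adjusted p = 2.23e-07), in CD8α-only cells by 0.92 and in γδ T cells by 0.83, and it was lower in pDC (-1.53, SE 0.30) and in phagocytes (-1.76, SE 0.47), the last on 7 UMIs and lost after thinning each cell to 1000 UMIs (adjusted p = 0.13).

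Atf5, a related factor that is also controlled through translation, was measured at 3.2 to 7.9 CPM in γδ, CD8α-only and CD8αβ T cells. The 4 CD8αβ values (5.5, 6.6, 7.0 and 7.9 CPM) overlapped with those of γδ T cells (3.5 to 6.0 CPM). Of the 5-class sums, all 4 of CD8αβ T cells and 1 of the other 16 reached the filter's minimum of 5.15 CPM, so the value of that fit (0.80) is no support for a difference. With no filter on low counts and all 7 classes the value was 0.68 (SE 0.36) and did not pass (adjusted p = 0.26). Trib3, a pseudokinase that ATF4 and CHOP induce and that feeds back on them, had 147 UMIs in 98790451 UMIs of kept cells, and in most classes it was too sparse to test.

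The serine synthesis genes parted from each other by class. Phgdh, the first enzyme of serine synthesis from glycolysis, measured 91.3 and 141 CPM in the control samples and 127 and 97.8 CPM in the cystine samples in pDC, where the diets overlapped. In γδ T cells it ranged from 51.2 to 76.1 CPM and in CD8α-only cells from 55.7 to 69.1 CPM, below every pDC value. CD8αβ T cells (70.2 to 107 CPM) and CD4 T cells (77.0 to 131 CPM) overlapped with pDC. In phagocytes a single Phgdh UMI was counted among 865502 (1.16 CPM, exact Poisson 95% interval 0.029 to 6.44, counting error only), and the pooled level in B cells was 64.8 times as high, with a counting interval of 11.6 to 2561. The pDC level was higher than the mean of the other classes in both fits (1.72, SE 0.16, and 0.84, SE 0.11, edgeR adjusted p = 6.78e-07, in the 5-class fit). The calls for CD8αβ T cells (1.13) and B cells (1.07) were lost in the 5-class fit, at 0.22 (adjusted p = 0.086) and 0.14 (adjusted p = 0.26). γδ T cells and CD8α-only cells were called lower in that fit, at -0.64 and -0.56. The CD4 T cell call (1.18, SE 0.28) rested on 43 UMIs and was lost without control replicate 1 (0.96, adjusted p = 0.12), without cystine replicate 1 (1.04, adjusted p = 0.051) and after thinning (0.38, adjusted p = 0.81).

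Psat1, the aminotransferase of the next step of that pathway, was not high in pDC. It measured 7.8, 17.4, 6.0 and 9.3 CPM in pDC of control replicates 1 and 2 and cystine replicates 1 and 2, against 30.5, 33.0, 24.3 and 15.1 CPM in B cells. It was lower in pDC (-0.88, SE 0.34, adjusted p = 0.032), a call lost when control replicate 1 or either cystine replicate was left out (adjusted p 0.079 to 0.14), and higher in B cells (0.77, SE 0.22, adjusted p = 0.0051), a call lost without cystine replicate 1 (0.65, adjusted p = 0.076). In pDC the 2 enzymes of 1 pathway thus stood on opposite sides of the mean of the other classes. Asns, which makes asparagine and is a classical ATF4 target, had 199 UMIs in all kept cells, 2.01 CPM, and was not tested between classes.

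Ddit4, Sesn2 and Eif4ebp1 act as brakes on mTORC1, the kinase that couples amino acids to growth, or on translation. Ddit4 (REDD1, an mTORC1 inhibitor also induced by glucocorticoids and low oxygen) was called higher in B cells by 0.71 (SE 0.14, edgeR adjusted p = 1.02e-04). That call was lost with a stricter cell filter (0.39, adjusted p = 0.090), and it pools both diets. B cells measured 138 and 152 CPM on the control diet and 246 and 194 CPM with cystine. The control values lay within the ranges of γδ (117 to 160 CPM) and CD8α-only cells (126 to 165 CPM). They lay below the control CD8αβ values (208 and 188 CPM), and CD4 T cells ranged from 143 to 331 CPM. Ddit4 was lower in phagocytes by 0.91 on the log2 scale (-0.91, SE 0.25), lost without doublet removal (-0.60, adjusted p = 0.052). It was lower in γδ T cells (-0.41, SE 0.14, adjusted p = 0.012), a call lost with the stricter cell filter (-0.18, adjusted p = 0.34), after thinning (-0.30, adjusted p = 0.10) and without control replicate 1 (-0.36, adjusted p = 0.054).

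Sesn2, a leucine-binding sestrin that restrains mTORC1, measured 23.5, 12.4, 15.5 and 15.4 CPM in pDC and at most 5.2 CPM in any γδ, CD8α-only, CD8αβ or B cell sum. The 42 Sesn2 UMIs of pDC came from 42 different cells. All 4 pDC values lay above those other values. Only the 4 pDC sums, and none of the other 24, reached the filter's minimum of 11 CPM, so Sesn2 entered the filtered fit (3.44, SE 0.44) through the class in which it is high. With no filter on low counts, where every gene with a UMI is tested, the difference was also 3.44 (SE 0.47, edgeR adjusted p = 6.09e-12). Both values have CD4 T cells, with 0 Sesn2 UMIs, in their reference. Over 11 alternative settings, the 5-class fit among them, the difference ranged from 2.63 to 3.56. Epithelial genes summed to 83.5, 865, 458 and 929 CPM in pDC of the same samples, and their part in this level was not tested, since Sesn2 fell below the filter without barcodes holding them. Sesn2 was not detected among 432404 UMIs of CD4 T cells, which allows up to 6.94 CPM, so CD4 T cells could not be placed against the other T cells at this depth.

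Eif4ebp1 encodes 4E-BP1, which holds back cap-dependent translation until mTORC1 phosphorylates it. It measured 116 and 193 CPM in phagocytes of the control samples and 114 and 133 CPM in those of the cystine samples, against 37.4 to 48.8 CPM in B cells and 8.7 to 20.8 CPM in γδ, CD8α-only and CD8αβ T cells. These 3 levels did not overlap in any sample. The fit gave 3.0 for phagocytes (SE 0.23, edgeR adjusted p = 1.22e-12) and 1.03 for B cells. It gave -0.98 for γδ T cells, -1.21 for CD8α-only cells and -1.34 for CD8αβ T cells, with the high phagocyte level part of their reference. Over 14 alternative settings the γδ value ranged from -1.13 to -0.48. The CD8α-only value ranged from -1.41 to -0.72 and the CD8αβ value from -1.72 to -0.86. Epithelial genes summed to 8522 CPM in phagocytes of cystine replicate 2 and to 41.3 to 268 CPM in the other 3 phagocyte sums, and Eif4ebp1 was at 133 CPM in that replicate. Without any barcode holding an epithelial UMI the phagocyte difference was 3.33 (SE 0.23, adjusted p = 6.1e-16).

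The study set the cystine diet against the control diet. Over all kept cells none of the 10 members passed the test, beside 18 of 14066 genes called (0.128%). An unadjusted p under 0.05 was reached by 1 of the 10, Phgdh, and by 1335 of the 14066 genes. The median log2 fold change of the members was 0.06, with 6 of 10 above 0, against a median of 0.00 over all genes. Phgdh measured 56.3 and 56.8 CPM on the control diet, against 77.1 and 71.9 CPM on the cystine diet. Both cystine samples lay above both controls, as they did for 24.6% of all genes tested, and the change was 0.35 (SE 0.12, adjusted p = 0.41). Eif4ebp1 also did not overlap, at 16.5 and 16.4 CPM against 20 CPM in both cystine samples (0.24, SE 0.13, adjusted p = 0.68). Atf4 measured 64.9 and 56.4 CPM against 59.7 and 64.7 CPM, a difference of 0.00 (SE 0.12) with overlapping groups, and Ddit3 measured 39.7 and 43.7 against 43.8 and 43.6 CPM (0.02, SE 0.14).

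Psat1 was at 23.3 and 23.0 against 22.2 and 19.9 CPM (-0.18, SE 0.13), Asns at 1.9 and 1.8 against 2.1 and 2.2 CPM (0.21, SE 0.29) and Ddit4 at 129 and 143 against 148 and 157 CPM (0.12, SE 0.13). In each of these 3 genes the diets did not overlap in CPM, and none passed. Asns and Ddit4 were higher in both cystine samples, as were 24.6% of all genes, and Psat1 was lower in both, as were 13.6%. After TMM scaling Ddit4 overlapped. Atf5 (0.00, SE 0.21), Sesn2 (0.11, SE 0.26) and Trib3 (-0.18, SE 0.35) overlapped between diets. B cells made up 2.5% and 2.3% of kept control cells, against 15.1% and 6.3% with cystine, and sums over all cells do not separate such a shift in makeup from a change within cells.

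Within classes 37 tests of a member were possible and 1 passed. The members tested and the share of all genes called were 8 in γδ T cells (0.42%), 9 in CD8α-only cells (0.0452%), 6 in CD8αβ T cells (0.484%), 2 in CD4 T cells (0.0%, no gene of 1866, with 102 genes at an unadjusted p under 0.05 by edgeR), 6 in B cells (0.014%), 4 in pDC (0.0162%) and 2 in phagocytes (0.53%). An unadjusted p under 0.05 was reached in 4 of the 37. Of these, 3 were in CD8αβ T cells, where 906 of 8477 genes reached it, and 1 in B cells, where 337 of 7138 did. In the other classes it was reached by 601 of 10481 genes in γδ T cells and 641 of 11054 in CD8α-only cells. In pDC 246 of 6183 genes did so, and in phagocytes 265 of 3209.

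**Figure D2:**
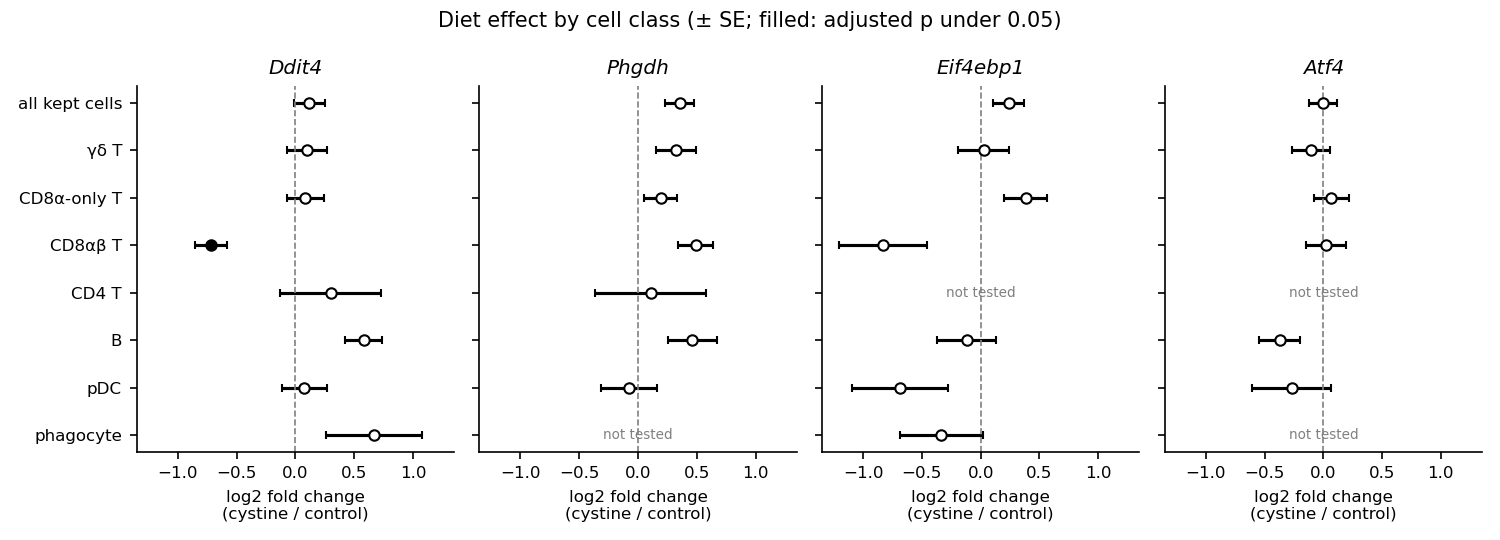
Diet effect on 4 members (horizontal axis, log2 fold change of cystine over control; points are edgeR estimates and bars ± SE) in all kept cells and in 7 classes (vertical axis). The filled point, Ddit4 in CD8αβ T cells at -0.72, is the member that passed an adjusted p of 0.05, and grey words mark genes below the count filter.

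The member that passed was Ddit4 in CD8αβ T cells. It measured 208 and 188 CPM (190 and 171 UMIs) in the control samples and 118 and 135 CPM (203 and 291 UMIs) in the cystine samples. Both cystine samples lay below both controls, as they did for 15.2% of genes tested in this class. Ddit4 fell by 0.72 on the log2 scale (SE 0.14, edgeR adjusted p = 0.049). The call stood just inside the threshold. It was lost with DESeq2's Wald test (adjusted p = 0.17), after thinning each cell to 1000 UMIs (adjusted p = 0.22), and without control replicate 1 (adjusted p = 0.26), control replicate 2 (adjusted p = 0.23) or cystine replicate 1 (adjusted p = 0.070), while the estimate stayed between -0.90 and -0.60.

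The makeup of this class differed between the diets as well. The controls gave 502 and 446 CD8αβ T cells, the cystine samples 1231 and 1242. Cd5, Cd6, Thy1, Cd27 and Cd28, markers of conventional αβ T cells, summed to 957 and 810 CPM on the control diet, with 1172 and 1159 CPM on the cystine diet. Fcer1g, Cd244a and Cd160, markers of innate-like lymphocytes of the epithelium, summed to 1754 and 1949 CPM and to 1553 and 1402 CPM. Of this second list, Cd160 was higher in CD8αβ T cells (773 to 863 CPM) than in γδ T cells (562 to 662 CPM). Fcer1g was lower (450 to 1016 against 2944 to 3799 CPM), as was Cd244a (123 to 161 against 278 to 389 CPM), so the sum mixes both directions. Neither list overlapped between diets, and their part in the Ddit4 difference was not tested. A list of 8 glucocorticoid-response genes summed to 137 and 147 CPM on the control diet and to 147 and 139 CPM on the cystine diet, and its part was not tested either.

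**Figure D3:**
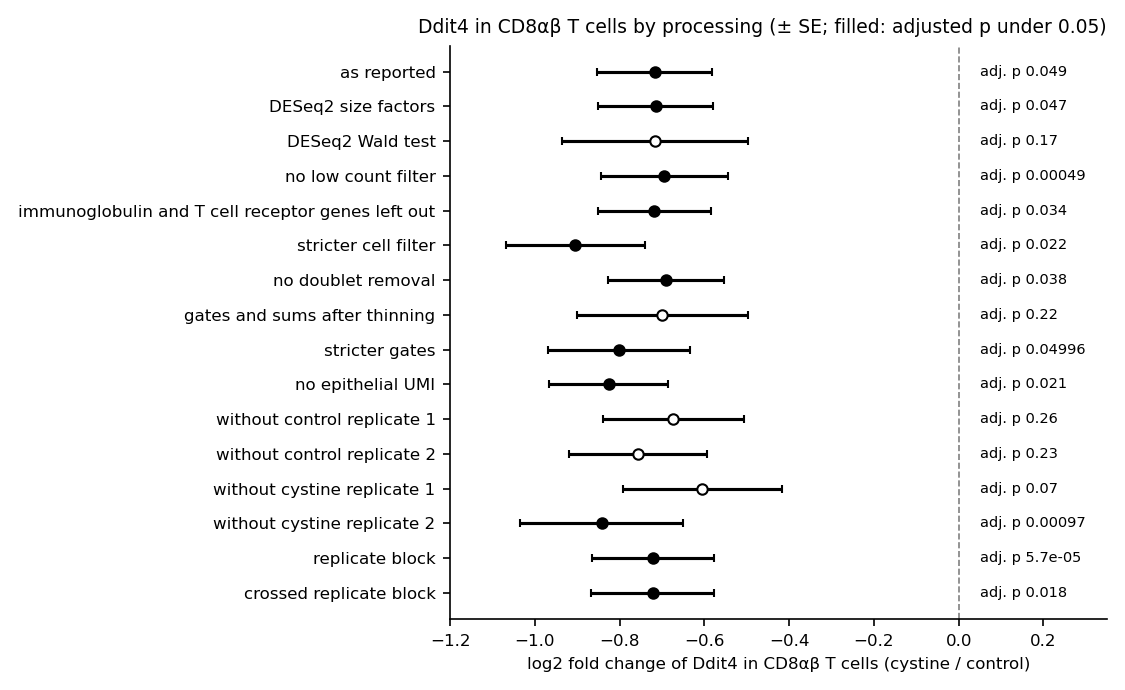
Ddit4 in CD8αβ T cells under 16 ways of processing (vertical axis; horizontal axis, log2 fold change of cystine over control, bars ± SE, filled points at an adjusted p under 0.05, with each adjusted p printed). The estimate is below 0 in all of them and the call is lost in 5.

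Ddit4 took the opposite direction in B cells, where it measured 138 and 152 CPM on the control diet, against 246 and 194 CPM with cystine. Both cystine samples were higher, as for 19.8% of genes tested in B cells, and the difference of 0.58 (SE 0.16) did not pass (adjusted p = 0.98, over 7138 genes of which 1 was called). A comparison of the diet effect between all 21 pairs of classes was added after seeing the data. Its p-values were adjusted over the genes of a pair and not over the pairs. For Ddit4 the effect in CD8αβ T cells minus that in B cells was -1.39 (SE 0.25, edgeR adjusted p = 0.021, with 0.0283% of 10609 genes called). This was the 1 call of a member. It was lost without doublet removal (-1.34, adjusted p = 0.19), without control replicate 1 (-1.23, adjusted p = 0.37), without control replicate 2 (-1.52, adjusted p = 0.21) and without cystine replicate 1 (-1.10, adjusted p = 0.93). Against γδ T cells, in which Ddit4 measured 117 and 128 CPM on the control diet, against 117 and 160 CPM with cystine, the difference of CD8αβ T cells was -0.84 (SE 0.22) and did not pass (adjusted p = 0.11, with 0.358% of genes called).

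Phgdh was higher in both cystine samples in 4 of the 5 larger classes and passed in none. In CD8αβ T cells it measured 70.2 and 71.6 CPM on the control diet, against 107 and 103 CPM with cystine (0.49, SE 0.15, adjusted p = 0.22). In γδ T cells it measured 51.2 and 53.7 against 76.1 and 62.1 CPM (0.32, SE 0.17, adjusted p = 0.90), and in CD8α-only cells 55.8 and 55.7 against 69.1 and 65.3 CPM (0.19, SE 0.14, adjusted p = 0.92). In B cells it measured 56.9 and 57.1 against 75.1 and 87.3 CPM (0.46, SE 0.21, adjusted p = 0.98). In T cells that met no subset gate, which were not tested, it was at 58.1 and 54.8 against 75.0 and 71.6 CPM, and in pDC, as given above, the diets overlapped. Both cystine samples lay above both controls for 27.2% of all genes tested in CD8αβ T cells, 23.6% in γδ T cells and 25.5% in CD8α-only cells. These classes come from the same 4 libraries and are not separate replicates of the diet.

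The other members gave scattered values within classes. In B cells Atf4 was at 89.4 and 87.9 against 69.1 and 71.5 CPM and Psat1 at 30.5 and 33.0 against 24.3 and 15.1 CPM, in both genes with the cystine samples below the controls, as for 14.8% of all genes tested in B cells, and neither passed. Eif4ebp1 was lower in both cystine samples in CD8αβ T cells (20.8 and 13.2 against 8.7 and 11.1 CPM), as were 15.2% of all genes tested there. It was higher in both in CD8α-only cells (12.6 and 11.6 against 16.4 and 16.8 CPM), as were 25.5%, and it passed in neither class. Asns had at most 13 UMIs in any of these class sums, and a change in it within a class was not detectable at this depth.

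The wider amino acid response was measured with lists of related genes. Of 24 other ATF4 targets, such as the cystine transporter Slc7a11 and the transporters Slc7a5 and Slc38a2, 15 were measured over all kept cells and 0 passed between diets, with a median of 0.06 and 9 of 15 above 0. None of 13 aminoacyl-tRNA synthetases passed (median 0.14, 9 of 13 above 0), nor any of 14 genes of the eIF2 kinases and factors (median 0.04), 22 of mTORC1 and its amino acid sensors (median 0.00) or 14 of endoplasmic reticulum protein folding (median 0.16). The same 5 lists had 0 calls in γδ, CD8α-only, CD8αβ and B cells.

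Several members differed between dividing and other T cells. T cells with UMIs of at least 2 of 12 proliferation genes (115 to 204 cells a sample) were compared with T cells that had none, in the same samples. Of the 10 members 3 rose and 2 fell, beside 33.6% of 11653 genes called, 17.4% higher and 16.1% lower. The 3 that rose were Psat1, Phgdh and Asns, which make amino acids. Asns met the filter on low counts mainly through the cycling cells, so its call adds no weight to that count.

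**Figure D4:**
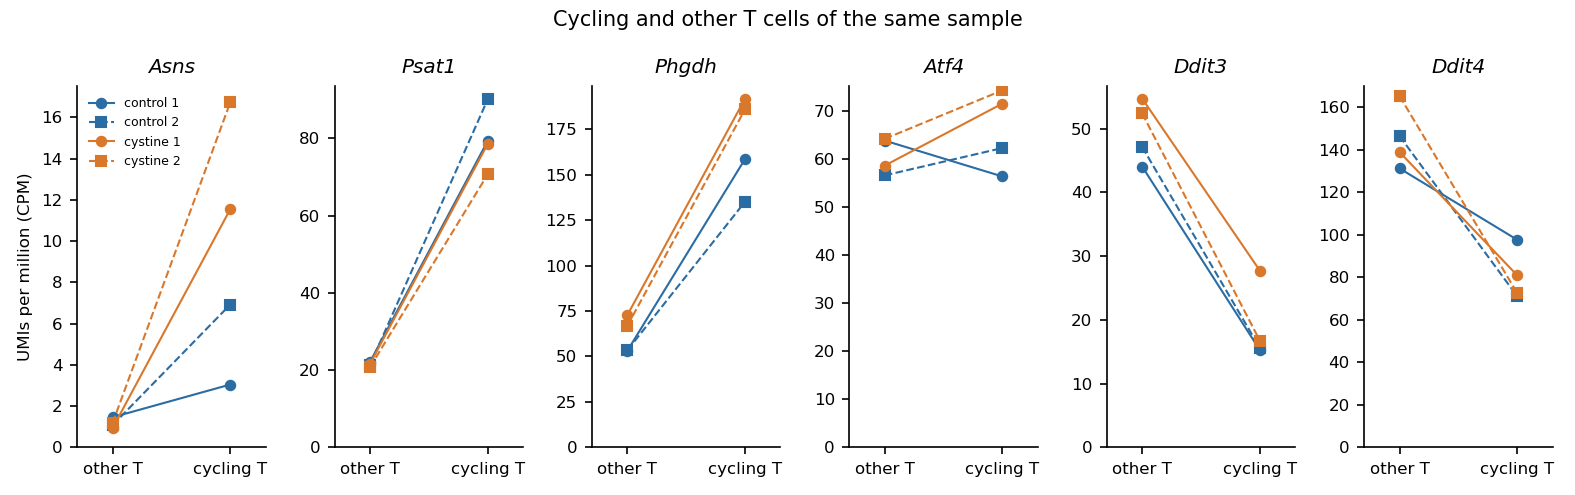
Levels of 6 members (vertical axes, CPM, linear from 0) in T cells without proliferation markers (left of each panel) and cycling T cells (right), with a line for each of the 4 samples. Asns, Psat1 and Phgdh rise and Ddit3 and Ddit4 fall in all 4 samples, whereas Atf4 rises in 3 and falls in 1.

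Psat1 measured 22.1, 21.3, 21.6 and 20.8 CPM in other T cells and 79.3, 90.1, 78.5 and 70.7 CPM in cycling T cells, in the order control 1, control 2, cystine 1, cystine 2. It rose by 1.95 (SE 0.15, adjusted p = 3.91e-10). Phgdh measured 53.2, 53.4, 72.8 and 66.9 CPM in other T cells and 159, 135, 192 and 186 CPM in cycling T cells, and rose by 1.51 (SE 0.10, adjusted p = 7.95e-11). In both genes each sample's cycling cells lay above all 4 values of the other T cells. Asns measured 1.5, 1.1, 0.9 and 1.2 CPM in other T cells and 3.0, 6.9, 11.6 and 16.7 CPM in cycling T cells, the latter on 2, 4, 5 and 9 UMIs, and each sample rose. All 4 cycling sums and 1 of the other 4 reached the filter's minimum of 1.2 CPM, so Asns entered the filtered fit (2.99, SE 0.59) mainly through the cells in which it is high. With no filter on low counts it rose by 2.90 (SE 0.63, adjusted p = 5.3e-05).

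Ddit3 measured 44.0, 47.1, 54.7 and 52.4 CPM in other T cells and 15.2, 15.6, 27.7 and 16.7 CPM in cycling T cells, and fell by 1.37 on the log2 scale (SE 0.19, adjusted p = 6.91e-06). Ddit4 measured 131, 146, 139 and 165 CPM and 97.6, 71.0, 80.9 and 72.5 CPM, and fell by 0.78 (SE 0.12, adjusted p = 2.57e-05). In both genes the cell states did not overlap. Atf4 did not pass (0.17, SE 0.14), nor did Eif4ebp1 (0.13), Atf5 (0.37) or Sesn2 (0.30). Trib3 was not detected among 2203827 UMIs of cycling T cells, which allows up to 1.36 CPM, near its 1.68 CPM in other T cells, so a difference was not detectable at this depth.

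Cycling T cells held more RNA (median 2870 to 3691 UMIs against 1300 to 1685) and more epithelial transcripts, with 8 epithelial genes summing to 752 to 2668 CPM against 235 to 357 CPM and none of the 8 at 0 in any cycling sum. Without any barcode that had a UMI of these genes the changes were 2.25 for Psat1, 1.62 for Phgdh, 2.71 for Asns, -1.34 for Ddit3 and -0.64 for Ddit4, and all 5 passed. After thinning to 1000 UMIs Psat1, Phgdh and Ddit4 passed, Ddit3 did not (-1.33, adjusted p = 0.12), and Asns fell below the count filter.

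The related lists were set beside the 17.4% of all genes that rose and the 16.1% that fell with division. Of 13 tRNA synthetases 7 rose and none fell, led by Cars (1.19, the cysteinyl-tRNA synthetase), Vars (0.78) and Mars (0.74), and all 13 were above 0. Of 11 other ATF4 targets measured 4 rose and 2 fell. Cth, which makes cysteine from cystathionine, rose by 4.5 (SE 0.64), and the amino acid transporter gene Slc7a5 rose by 1.96 (SE 0.64). Epithelial genes rose in the same sums, led by Olfm4 (6.64), Krt19 (4.96) and Krt8 (4.23), and their part in these values was not tested. Ppp1r15a, which encodes the GADD34 subunit that reverses eIF2 phosphorylation, fell (-1.42, SE 0.32). Of 14 genes of the eIF2 list 3 rose and 2 fell, close to the share over all genes, and Eif2ak3, which encodes PERK, was among those that fell (-1.02, SE 0.21).

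In pDC, where Sesn2 and Phgdh were high, 12 of 14 genes of endoplasmic reticulum folding were higher and 1 lower than in the other classes, led by Xbp1 (2.62), Herpud1 (1.64) and Dnajb9 (1.60). Of the tRNA synthetases 2 were higher and 1, Gars, was lower there (-0.94), and of 11 other ATF4 targets 1 was higher and 3 lower. Over all genes 26.5% were called higher and 17.9% lower in pDC. In B cells 6 of 13 tRNA synthetases were higher and none lower, led by Vars (1.08), Cars (1.03) and Mars (0.81), beside 27.7% of all genes higher and 19.1% lower.

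For the 3 members with the highest mean CPM, the genes with the most similar pattern were sought among 6013 genes over 28 sums (7 classes in 4 samples, which share libraries and cells of 1 origin). Ddit4 was closest to Mettl23 (Pearson r 0.85), Smarcb1 (0.83) and Sf3a3 (0.81). Phgdh was closest to Il21r (0.95), Msi2 (0.94) and Ptprcap (0.93), and Atf4 to Cep85 (0.79), Nmd3 (0.76) and Trmt112 (0.76). Phgdh was at most 3.7 CPM in phagocyte sums and at least 51.2 CPM in every other sum. Since logarithms were correlated, the phagocyte sums weigh heavily in its values, which were not computed without them.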

How the data were processed

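The values analysed are raw UMI counts per gene and barcode, as deposited by the authors for called cells. Cell Ranger 3.1.0, Seurat 4.0.1 and build GRCm39 are named per the submitters' processing notes, while the deposited matrix headers name version 7.0.1. Barcodes under 300 genes or over 10% mitochondrial UMIs were dropped, and those with the highest Scrublet scores (scanpy 1.11.5) were removed as doublets at 0.8% per 1000 barcodes. T cells needed a Cd3 UMI and at least 2 UMIs of 7 T cell receptor complex genes, other lineages at least 2 different markers (plasma cells 3), and barcodes of more than 1 lineage were left out. A 0 for Cd8b1 or Trdc can be failed detection. UMIs were summed by class and sample and tested with edgeR 4.0.16 (filterByExpr, TMM, quasi-likelihood test, Benjamini-Hochberg adjustment over all genes tested). DESeq2 1.42.0, other filters and gates, and samples left out were alternatives. The fits were also run on simulated counts, with a fixed spread and with changes placed only in genes of higher CPM. That check does not cover the sparse members. CPM are counts per 1000000 UMIs of the class sum, and levels are compared within a gene only.

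All 10 members were accounted for in the diet comparison over all kept cells and in that of cycling T cells. For the comparison of classes and the diet effects within classes, the members called were counted and values were given for some members only. From related lists at most 3 called genes with the largest change were named. The members and lists were chosen with earlier results of these data known. Intervals cover counting error only.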

Additional observations from a re-analysis of the deposited data

Results flagged for a closer look

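The diet effect on Ddit4 was called different between 2 cell classes by a test of the difference itself, which did not hold in all settings. The pair came from a scan of 21 pairs of classes added after seeing the data, with p-values adjusted within a pair and not over the pairs. The effect in CD8αβ T cells minus that in B cells was -1.39 on the log2 scale (SE 0.25, edgeR adjusted p = 0.021), with both cystine samples below both controls in CD8αβ T cells and above both in B cells. Of 8 alternatives run on this difference 4 lost the call, with adjusted p values from 4.57e-07 to 0.93. The number of cells in both classes also differed between the diets, and its part was not tested.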

How the results depend on the processing

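With 2 samples a diet, the test across genes is sensitive to single libraries. Genes called between diets in all kept cells numbered 18, against 359 with DESeq2's Wald test, 314 with a replicate block and 0 to 906 over all settings, and in CD8αβ T cells 41 against 17 to 292. In γδ T cells the range was 16 to 433 (44), in CD8α-only cells 3 to 746 (5), in B cells 0 to 61 (1), in pDC 0 to 71 (1), in phagocytes 0 to 159 (17) and in CD4 T cells 0 to 58 (0). Between cycling and other T cells it was 857 to 4394 (3911). Ddit4 was called in CD8αβ T cells in 10 of 15 settings: the 1 member called there became 0 with the Wald test and 0 after thinning, and 0 to 1 with a sample left out. The next counts are of the comparison of classes and not of the diet effect. With CD4 T cells and phagocytes left out, 5 members were called in γδ T cells and 6 in CD8α-only cells. In CD4 T cells against the other classes 2 were called with the Wald test and 2 with no low count filter, 0 after thinning, and 0 to 1 with a sample left out. In pDC against the other classes 3 were called after thinning and 3 without epithelial UMIs, and 3 to 5 with a sample left out. Between cycling and other T cells 3 were called after thinning. The counts that follow are again of the diet effect. The difference of CD8αβ from γδ T cells gained 1 call with no low count filter, and that from B cells went to 0 without doublet removal and 0 to 1 with a sample left out. In all kept cells, where no member was called, estimates near 0 changed sign. Atf5 was 0.10 with a stricter cell filter, 0.055 without doublet removal and -0.014 to 0.0021 with a sample left out. Ddit3 was -0.016 with a stricter filter, -0.0038 without epithelial UMIs and -0.11 to 0.16 with a sample left out, including -0.0071 without cystine replicate 1. Atf4 was 0.011 without doublet removal, 0.0023 without epithelial UMIs and -0.060 to 0.032 with a sample left out. The equal-weight mean of the class effects was -0.26 for Eif4ebp1 and -0.13 for Atf4. With a sample left out Trib3 ranged from -0.41 to 0.10, Sesn2 from -0.15 to 0.30 and Ddit4 from -0.011 to 0.26. The deviations of same-numbered samples from the mean of their diet correlated over genes at -0.13 to 0.036 in 5 sums, and the labels do not pair these samples. The replicate block kept Ddit4 in CD8αβ T cells (-0.72, adjusted p = 5.7e-05), as did the crossed pairing (adjusted p = 0.018), chosen after seeing the data as were the settings without epithelial UMIs and those of the difference from B cells, and no other member was called in either. The cause of these shifts was not tested.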
